A study of Mus musculus with 194 samples.

Results

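A set of 9 genes that mark the peptide and subtype classes of cortical interneurons was followed through every insertion table of a calling card study in the mouse brain. The members are the peptide genes Sst, Npy, Vip, Cck, Tac1, Penk and Crh, the calcium-binding protein gene Pvalb and the extracellular glycoprotein gene Reln. They were chosen by name, and each was measured as the insertions in its GRCm38 gene body with 10 kb on each side, per 1000000 insertions of the table (IPM). The gene bodies are Sst (chr16:23889573-23891342), Npy (chr6:49822710-49829507), Vip (chr10:5639193-5647617), Cck (chr9:121489824-121495694), Tac1 (chr6:7555061-7562978), Penk (chr4:4133536-4138815), Crh (chr3:19693401-19695396), Pvalb (chr15:78191112-78206400) and Reln (chr5:21884454-22344705). These 9 loci stand among 21631 protein-coding loci counted in the same way. Calling cards are transposons placed at TTAA sequences by a transposase, which acts on open chromatin by itself or is steered by a protein joined to it, and each insertion marks a place the enzyme reached. In most groups the transposon was read from RNA (self-reporting transposon, SRT), and in 1 group from DNA.

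Interneurons are inhibitory neurons that release GABA, and most fall into classes that differ in the peptide or protein they carry. Somatostatin, parvalbumin and vasoactive intestinal peptide cells are the main classes, and reelin and neuropeptide Y mark others. Cholecystokinin is also transcribed in many excitatory cortical neurons, and enkephalin, tachykinin and corticotropin-releasing hormone genes are used by several cell types. Peptides are made as precursors, cut and packed into dense granules, and act on G protein-coupled receptors, whereas reelin acts on lipoprotein receptors.

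The series holds 47 tables, of which 46 are each from 1 animal in 11 groups. Adeno-associated virus was injected on postnatal day 0 to 1. Syn1Cre (6 mice) carries Cre driven from the synapsin 1 promoter, used to reach neurons, and Syn1CreNeg (6 mice) are the Cre-negative controls of that line. GFAPCre (6 mice) carries Cre from the promoter of the astrocyte gene Gfap, and GFAPCreNeg (6 mice) are its Cre-negative controls. C57bl6J (2 mice) had viruses that need no Cre. Syn1Cre_SP1_P28 (4 mice) and Syn1Cre_SP1_P10 (3 mice) had the transposase labelled SP1, a factor that binds GC-rich promoter elements, and P28 and P10 were read as the postnatal day of collection; the labels give no such age for Syn1Cre. Rbp4Cre_TRAP (4 mice) is whole-forebrain RNA purified on tagged ribosomes in a Cre line of deep-layer excitatory neurons. BrokenHeart (3 mice) was read from DNA by inverse PCR. Frontflip_GFAPCre (3 mice) and Frontflip_GFAPCreNeg (3 mice) had a virus design that the labels do not describe further. N2a, a mouse neuroblastoma line, is 1 table made from 3 experiments, with no replicate. In these tissue tables, more cells of a type carrying insertions and more insertions per cell at a locus cannot be told apart.

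The tables held 443158 to 1364948 insertions per Syn1Cre mouse and 600443 to 1505413 per GFAPCre mouse, but 24408 to 57014 per Rbp4Cre_TRAP mouse and 2341 to 9601 per Frontflip_GFAPCreNeg mouse. A single insertion was therefore worth 0.733 to 2.26 IPM in Syn1Cre and 17.5 to 41.0 IPM in Rbp4Cre_TRAP. The 8 loci other than Reln (the short loci) span 21.8 to 35.3 kb each, so several of them held few or no insertions in the shallow tables. The 12 astrocyte genes of the marker list summed to 715 to 2214 IPM in Syn1Cre and to 921 to 1859 in GFAPCre, and these ranges overlapped. In Syn1CreNeg and GFAPCreNeg the same sums averaged 2747 ± 267 and 2139 ± 650 (SD, n = 6 each), against 1349 ± 352 in GFAPCre, which thus averaged below its own controls. The GABA synthesis and Dlx gene list summed to 795 to 1009 IPM in Syn1Cre and to 165 to 246 in GFAPCre, with no overlap. The part that these cell type shifts have in the values of single members was not tested.

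The promoters of 4 members are shown because the insertions within them differ in number and because they differ in base composition. Each is 300 bases, from 250 before to 50 after the start site, taken from RefSeq on GRCm38.p6, where 7 of the 9 members matched; Penk and Crh are named only. Sst lies at chr16:23890795-23891094 on the minus strand, Cck at chr9:121495645-121495944 on the minus strand, Vip at chr10:5638968-5639267 on the plus strand and Reln at chr5:22344656-22344955 on the minus strand. In the first 3, capitals mark TTAA, the sequence the transposase needs; in Reln, capitals mark GGGCGG, the GC box, searched on both strands.
Sst: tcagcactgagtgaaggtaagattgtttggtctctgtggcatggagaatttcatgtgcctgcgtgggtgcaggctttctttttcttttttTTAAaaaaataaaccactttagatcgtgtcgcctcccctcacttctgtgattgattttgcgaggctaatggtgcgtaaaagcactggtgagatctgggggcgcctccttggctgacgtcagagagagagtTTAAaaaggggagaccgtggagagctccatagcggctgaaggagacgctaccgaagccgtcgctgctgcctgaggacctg
Cck: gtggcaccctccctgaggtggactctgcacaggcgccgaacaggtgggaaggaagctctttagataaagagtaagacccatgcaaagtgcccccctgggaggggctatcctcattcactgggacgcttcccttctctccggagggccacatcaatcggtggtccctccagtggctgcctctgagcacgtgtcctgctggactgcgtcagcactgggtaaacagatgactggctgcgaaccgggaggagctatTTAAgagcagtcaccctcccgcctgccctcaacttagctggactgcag
Vip: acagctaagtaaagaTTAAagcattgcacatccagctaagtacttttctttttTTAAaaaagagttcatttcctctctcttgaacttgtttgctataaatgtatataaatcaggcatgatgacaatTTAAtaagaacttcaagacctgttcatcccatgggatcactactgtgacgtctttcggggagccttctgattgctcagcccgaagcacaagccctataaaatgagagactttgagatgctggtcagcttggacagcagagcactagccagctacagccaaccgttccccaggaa
Reln: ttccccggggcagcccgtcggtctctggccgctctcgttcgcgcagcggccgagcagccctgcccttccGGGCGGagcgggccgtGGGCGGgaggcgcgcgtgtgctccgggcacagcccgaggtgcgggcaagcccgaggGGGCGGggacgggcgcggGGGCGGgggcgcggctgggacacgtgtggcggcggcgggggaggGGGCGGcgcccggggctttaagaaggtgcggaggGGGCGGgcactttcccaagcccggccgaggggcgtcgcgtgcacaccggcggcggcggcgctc

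The Sst window held 2 TTAA sequences and 28 insertions over all tables, every one of them on a TTAA. The TTAA centred 159 bases before the Sst start site (−159) took 18 of these, of which 7 came from Syn1Cre, 8 from Syn1Cre_SP1_P28, 2 from Syn1Cre_SP1_P10, 1 from C57bl6J and 0 from GFAPCre. These are plain counts over groups of unlike depth. All tables of a group held 5573110 insertions in Syn1Cre, 1083099 in Syn1Cre_SP1_P28, 271946 in Syn1Cre_SP1_P10, 3732694 in C57bl6J and 5201701 in GFAPCre. Relative to depth, both SP1 groups thus stood above Syn1Cre at this TTAA, on few insertions. The second one, at −29, took 10, of which 3 came from Syn1Cre and 1 from GFAPCre. Cck had a single TTAA 3 bases past its start site, with 20 insertions, 6 from Syn1Cre and 5 from GFAPCre, so these groups were near each other there. Vip had 3 TTAA sequences and 15 insertions, 4 of which came from N2a. The Reln window was 80.7% G or C, held 6 GC boxes and a single TTAA, and took 0 insertions. Among the 32851 promoters of the same length in the table, 52.4% held a TTAA and 35.7% a GC box. The Sst window also held the cAMP response element TGACGTCA, found in 1.79% of these promoters. Of the others, Npy had 0 TTAA, Tac1 had 1 TTAA with 1 insertion, and the Pvalb windows held 2 insertions that were not on a TTAA.

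To set the members beside each other, levels were taken per 10 kb of locus. In Syn1Cre the mean level was 21.5 IPM per 10 kb at Sst, 10.8 at Cck and 8.45 at Reln, against a median of 3.16 over all loci. Npy followed with 4.76 and Crh with 4.07, and both were above that median. Tac1 (2.40), Penk (2.21), Vip (1.78) and Pvalb (1.24) were below it. In GFAPCre the order of the leading members changed, with Cck at 11.4, Reln at 5.88 and Sst at 2.93, the last next to the median locus of 2.96. Sst was therefore at the 98.2 percentile of loci in Syn1Cre and at the 49.7 percentile in GFAPCre, whereas Cck was at 90.4 and 92.0.

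The main comparison set neuron-directed against astrocyte-directed Cre. At Sst, whose product somatostatin marks dendrite-targeting interneurons, Syn1Cre mice had a lowest value of 33.2, a median of 45.3 and a highest of 67.9 IPM, from 273 insertions. GFAPCre mice had 1.63, 5.39 and 11.7 IPM, from 32 insertions. Every Syn1Cre mouse was above every GFAPCre mouse. The fitted log2 difference was 2.90 ± 0.27 (SE), with an adjusted p of 6.93e-08 (edgeR quasi-likelihood test, Benjamini-Hochberg over all loci tested). It stayed past the threshold of 0.05 when each of the 12 mice was left out in turn, at log2 2.73 to 3.11.

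**Figure D1:**
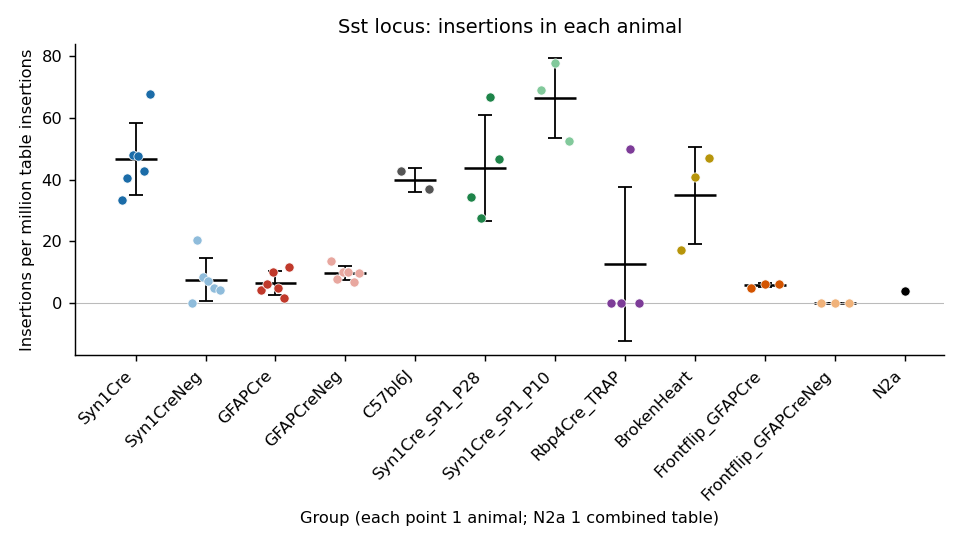
IPM in the Sst locus (vertical axis) for every animal of each group (horizontal axis), with the group mean and SD as bars. The 6 Syn1Cre mice lie between 33.2 and 67.9, above all GFAPCre, GFAPCreNeg and Syn1CreNeg mice, whose highest value is 20.5.

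At Reln, the large gene of reelin, made by layer 1 and other interneurons in the postnatal cortex, Syn1Cre mice ranged from 366 to 445 IPM with a median of 415. GFAPCre mice ranged from 199.9 to 330 with a median of 296. These ranges did not overlap either, but the difference was small, at log2 0.47 ± 0.12 (SE) with an edgeR adjusted p of 0.0345. Of the 12 fits that left out 1 mouse (leave-one-out) 6 kept it past the threshold, and without Syn1Cre 2, 4 or 6 or GFAPCre 1, 3 or 4 the adjusted p was 0.0618 to 0.113, at log2 0.39 to 0.52 over all of them. Only the labels of Syn1Cre 1, 2 and 3 list the same fields as those of GFAPCre. In these mice 37.3% to 44.55% of insertions had 1 read, against 10.1% to 15.15% in Syn1Cre 4, 5 and 6. GFAPCre mice had 5.65% to 16.6%. With only Syn1Cre 1, 2 and 3 kept from that group, the Reln difference was 0.32, with an edgeR adjusted p of 0.0797. Over the 9 other settings of Reln, the adjusted p ran from 0.00675 to 0.0797. Cck did not move with either of them: Syn1Cre mice had 17.2, 29.2 and 40.3 IPM (lowest, median, highest) and GFAPCre mice 23.3, 28.8 and 39.6, a log2 difference of −0.14 ± 0.19 (SE; edgeR adjusted p = 0.754). Thus 2 of the 3 members tested passed, both higher in Syn1Cre, where 2.15% of 11553 loci passed in either direction. The members were chosen with a rise around Sst in Syn1Cre over GFAPCre known, so this count is a description. A locus can also pass the filter through the group where it is high.

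The remaining 6 members had too few insertions for the filter on low counts and were compared without it. Their values in both groups stand first. At Npy, which encodes a peptide of several GABA neuron classes, Syn1Cre mice had 7.84 to 16.7 IPM and GFAPCre mice 3.33 to 8.80, so that only the lowest Syn1Cre mouse lay within the other range. At Tac1, the substance P precursor gene, Syn1Cre mice had 4.51 to 10.7 and GFAPCre mice 1.2 to 3.33, with no overlap. At Crh, the stress hormone gene, the ranges 3.99 to 13.5 and 2.94 to 11.4 overlapped. The same was true of Vip (1.56 to 9.30 and 1.99 to 5.00), Penk (0 to 8.35 and 3.60 to 10.3) and Pvalb (0 to 6.77 and 0 to 4.40). Without the filter 1.5% of 20565 loci passed, and none of these 6 did: Npy differed by log2 0.98 ± 0.29 (SE; edgeR adjusted p = 0.0792) and Tac1 by 1.24 ± 0.41 (edgeR adjusted p = 0.119). Vip (0.57), Crh (0.71), Pvalb (0.86) and Penk (−0.15) had edgeR adjusted p-values from 0.369 to 0.900.

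Summed over these 6 genes, the level was 43.4 ± 5.46 IPM (SD, n = 6; range 37.2 to 53.7) in Syn1Cre and 25.5 ± 5.77 (n = 6; range 19.7 to 32.5) in GFAPCre. The sums did not overlap, and no test was made on them because the members were chosen with earlier results known. With Cck added, the sum of the 7 short loci without Sst was 71.3 ± 10.99 (60.1 to 87.1) in Syn1Cre and 55.1 ± 10.52 (43.3 to 70.4) in GFAPCre, and here the ranges overlapped.

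**Figure D2:**
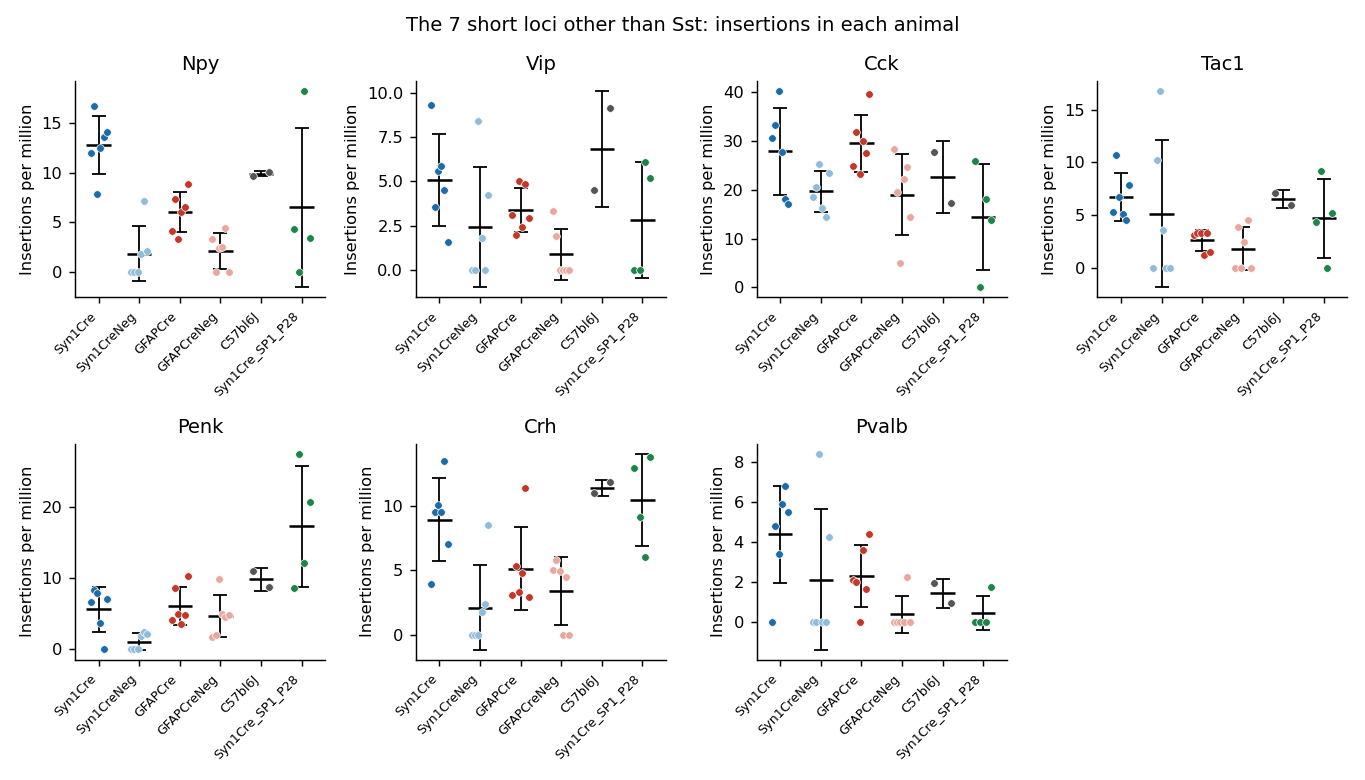
IPM (vertical axis, its own scale in each panel) at Npy, Vip, Cck, Tac1, Penk, Crh and Pvalb for each animal of 6 groups, with mean and SD as bars. Tac1 values of Syn1Cre (4.51 to 10.7) lie above those of GFAPCre (1.2 to 3.33), while Cck values of these groups overlap.

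The other genes of the pathway were read from fixed lists in the fit with the filter. There 2.15% of 11553 loci passed in either direction, 137 of them higher in Syn1Cre. A gene can pass the filter through the group where it is high, so the list counts are a description. Of 24 receptor and effector genes for these ligands 17 were tested, 2 rose in Syn1Cre over GFAPCre (Oprd1, a delta opioid receptor gene, log2 0.81, and Sstr1, a somatostatin receptor gene, 0.59) and 0 fell, with a list median of 0.06 against −0.00 over all loci. Of 15 other neuropeptide genes 5 were tested and 2 rose, Pnoc (1.17) and Crhbp (1.02), which encodes the binding protein of corticotropin-releasing hormone. Of 10 genes for precursor processing and granules 9 were tested and 1 rose, Pam (0.38), which amidates peptides. Of 25 other subtype genes 19 were tested and 6 rose, among them Lhx6 (2.94), Maf (2.46) and Sp9 (2.17), transcription factor genes of the interneuron lineage. Of 8 genes for GABA and the Dlx factors all 7 tested rose, with a median of 1.95, and Dlx1 (2.52) and Dlx5 (2.35) led them. Dlx1 and Dlx2, and Dlx5 and Dlx6, are neighbours whose loci can share insertions. Among marker genes of other cells, 3 of 12 excitatory genes rose (median 0.20), 0 of 11 astrocyte genes passed (median −0.37), and P2ry12 of the microglia list fell by 0.78.

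The Cre-negative controls gave a background for each Cre line. At Sst, Syn1CreNeg mice had a lowest value of 0, a median of 5.99 and a highest of 20.5 IPM (from 2 insertions), all below the Syn1Cre mice. The log2 difference of Syn1Cre from them was 2.89 ± 0.37 (SE; edgeR adjusted p = 4.42e-06). At Reln, Syn1CreNeg mice had 149, 262 and 328 IPM, again below every Syn1Cre mouse, and the difference was 0.65 ± 0.14 (SE; edgeR adjusted p = 7.57e-04). Both calls held in all 12 fits that left out 1 mouse. At Cck, Syn1CreNeg mice had 14.4, 19.6 and 25.2 IPM, which overlapped Syn1Cre, and the difference of 0.54 ± 0.28 (SE) had an edgeR adjusted p of 0.139; without Syn1Cre 6 it was 0.0483. So 2 of 3 members tested rose, where 31.1% of 8613 loci passed, a count that is again a description.

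Without the filter, where 14.6% of loci passed, Npy also rose in Syn1Cre over Syn1CreNeg, by log2 2.03 ± 0.55 (SE; edgeR adjusted p = 0.00420). Npy was at 0 in 3 of the 6 Syn1CreNeg mice, with a highest value of 7.18 IPM, which is below every Syn1Cre mouse. These mice held only 5 Npy insertions in all, and a single insertion was worth 1.80 to 10.25 IPM among them. In the shallowest, 1 insertion would thus have stood above the lowest Syn1Cre mouse, so a value of 0 there says little. Penk (1.63, edgeR adjusted p = 0.123), Crh (1.23, 0.142), Pvalb (1.24, 0.304), Tac1 (1.14, 0.233) and Vip (0.97, 0.381) did not pass. The lists were read in the fit with the filter, where 31.1% of loci passed. In the receptor list 5 of 12 tested rose, among them Oprd1 (1.5), Tacr1 (1.25), Sstr1 (1.23) and Oprm1 (0.68), with a median of 0.38 against 0.02 over all loci. In the processing list 3 of 7 rose and 2 fell, Cpe by 1.4 and Scg3 by 1.17. In the GABA list 6 of 7 rose and 0 fell, and in the subtype list 6 of 15 rose and 3 fell. In the astrocyte list 9 of 10 fell, with a median of −1.43, and its part in the other values was not tested.

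In GFAPCre against GFAPCreNeg the members stayed under the threshold. GFAPCreNeg mice had 6.71, 9.74 and 13.4 IPM at Sst (lowest, median, highest), and GFAPCre mice lay partly below this range and partly in it. Sst did not pass the filter; without it the log2 difference was −0.67 ± 0.41 (SE; edgeR adjusted p = 0.440). Cck had 4.93, 20.9 and 28.5 IPM in GFAPCreNeg and differed by 0.57 ± 0.24 (SE; edgeR adjusted p = 0.141). Reln had 192, 312 and 367 IPM there and differed by −0.09 ± 0.12 (SE; edgeR adjusted p = 0.720). None of the 2 members tested passed, where 8.15% of 9203 loci did; at an unadjusted p under the same threshold Cck would have, and with DESeq2 0 did. The other members were low in GFAPCreNeg: Npy had 0, 2.47 and 4.48 IPM (lowest, median, highest), Crh 0, 4.70 and 5.85, Penk 1.67, 4.64 and 9.86, Tac1 0, 1.24 and 4.48, Vip 0, 0 and 3.35, and Pvalb 1 insertion in 6 mice. They did not pass the filter, and without it their log2 differences ran from 0.32 at Crh (edgeR adjusted p = 0.821) to 2.08 at Pvalb (0.280), with 1.30 ± 0.58 at Npy (SE; 0.233). In the receptor list 1 of 13 rose (Tacr1, 0.76), in the subtype list 1 of 13 fell (Sox6, by 0.61), and in the astrocyte list 5 of 11 fell.

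Whether the change with Cre differed between the lines was tested in 1 model of all 4 groups. The Syn1Cre change at Sst exceeded the GFAPCre change by log2 3.53 ± 0.59 (SE; edgeR adjusted p = 2.93e-04). At Reln it did so by 0.75 ± 0.19 (SE; edgeR adjusted p = 0.0495), just inside the threshold, and at Cck the difference of changes was −0.01 ± 0.40 (SE; edgeR adjusted p = 1.000). Sst was called in all 24 leave-one-out fits (3.37 to 3.76), but with only the animals whose labels list the fields that all 4 groups have it was 2.76 with an edgeR adjusted p of 0.0846. Reln was called in 8 of 24 leave-one-out fits (0.67 to 0.82) and in 5 of its 9 other settings, over which the edgeR adjusted p ran from 0.0209 to 0.114. Thus 2 of 3 members passed, where 0.692% of 10550 loci did, and as in the main comparison this count is a description. From the GABA list 6 of 7 passed in the same direction, with a median of 2.37, and from the subtype list 4 of 17 (Sp9, Maf, Erbb4 and Satb1), but 0 of 16 receptor genes and 1 of 8 processing genes (Pam, 0.75). The Cre-negative groups were set against each other too, where only Reln was tested (−0.26 ± 0.14, SE; edgeR adjusted p = 0.458) and did not pass unadjusted either, and 0.0426% of 7040 loci passed.

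**Figure D3:**
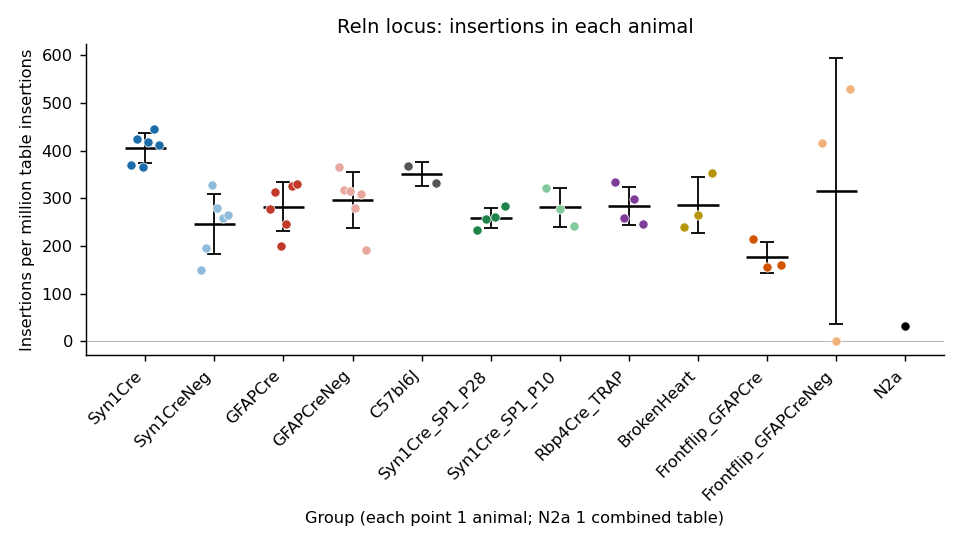
IPM in the Reln locus (vertical axis) for every animal of each group (horizontal axis), with the group mean and SD as bars. The Syn1Cre mice lie between 366 and 445, above the GFAPCre mice (199.9 to 330) and the Syn1CreNeg mice (149 to 328).

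In Syn1Cre and C57bl6J most insertions at Sst lay within 5 kb of its start. The counted locus spans 21.8 kb, so that window takes up a large part of it. Of the 273 Syn1Cre insertions in the locus, 80.2% were within 5 kb of the start site, against 53.1% of the 32 in GFAPCre and 83.7% of the 147 in C57bl6J. Within 1 kb the shares were near each other, at 38.1% in Syn1Cre, 34.4% in GFAPCre and 37.4% in C57bl6J. The level within 1 kb was 18.5 ± 2.40 IPM (SD, n = 6, 14.6 to 21.1) in Syn1Cre. In GFAPCre it was 1.95 ± 0.75 (n = 6, 1.2 to 3.11), with no overlap, as for the whole locus. The position with the most insertions began at base 23891812 of chromosome 16 (−968 from the start site), outside the gene body. It held 54 insertions from 17 animals, 32 of them from Syn1Cre, 12 from C57bl6J and 6 from GFAPCre. A position at −1050 held 28, of which 19 came from Syn1Cre, 6 from C57bl6J and 0 from GFAPCre. Another, 5461 bases past the start, held 39, of which 17 came from Syn1Cre and 6 from GFAPCre. Animals were cut into 10 parts that were indexed apart, so a position can be counted more than once in a mouse; with each position counted once per mouse the Sst difference between Syn1Cre and GFAPCre stayed past the threshold, as in each of the 8 other settings in which it was tested (log2 2.21 to 2.94).

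**Figure D4:**
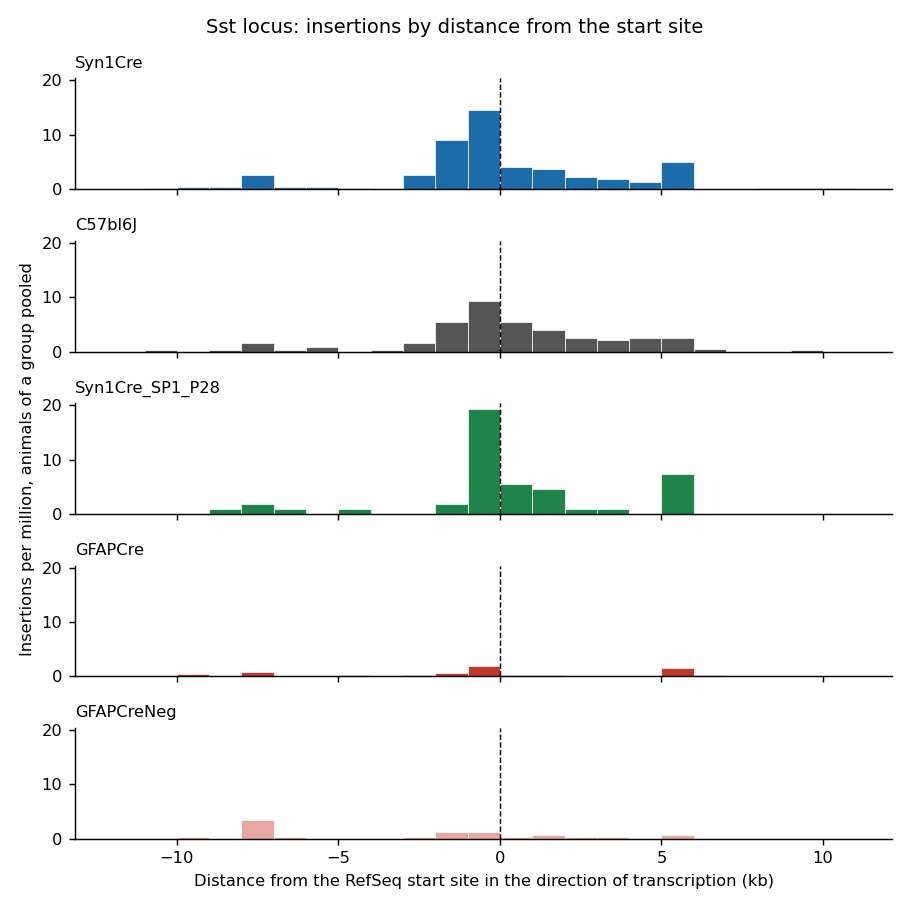
IPM in 1 kb steps (vertical axis) by distance from the Sst start site in the direction of transcription (horizontal axis, kb), with the animals of a group pooled, for 5 groups. Syn1Cre, C57bl6J and Syn1Cre_SP1_P28 have their highest step just before the start, and GFAPCre and GFAPCreNeg are low throughout.

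Other loci had their own spread of positions. At Cck, 134 of 527 insertions (25.4%) lay on 1 TTAA at −9960 from the start, at the edge of the counted locus, in 32 animals, with 36 from Syn1Cre and 38 from GFAPCre. At Crh, 41 insertions (26.6%) lay on 1 position inside the gene body, and the Crh locus also overlaps the body of Trim55. At Tac1 the leading position, 7018 bases past the start, held 20 (20.8%), of which 10 came from Syn1Cre and 2 from GFAPCre. Reln had no such site: its leading position held 103 of 6882 insertions (1.497%). Across the 480 kb of the Reln locus, the Syn1Cre level beyond 5 kb of the start was 329 ± 28.1 IPM (SD, n = 6) and that of GFAPCre 242 ± 45.3. Within 5 kb of the start lay 18.4% of the Reln insertions in Syn1Cre and 13.9% in GFAPCre.

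C57bl6J mice, whose viruses needed no Cre, had 42.7 and 37.0 IPM at Sst, inside the Syn1Cre range. Against Syn1Cre, the difference was −0.15 ± 0.21 (log2, SE; edgeR adjusted p = 0.809). None of the 5 members tested passed: Npy (9.70 and 10.1 IPM), Cck (27.8 and 17.4), Crh (11 and 11.9) and Reln (369 and 332) had log2 differences from −0.22 to 0.55. At an unadjusted p under the same threshold 0 of them passed, with DESeq2 0 did (Npy and Crh had no adjusted p there), and 0.81% of 14445 loci were called. Tac1 (7.12 and 5.95 IPM), Vip (4.53 and 9.15), Penk (11 and 8.69) and Pvalb (1.94 and 0.915) did not pass the filter; without it they differed by 0.04, 0.68, 0.82 and −1.55, with edgeR adjusted p from 0.318 to 0.980. Only Nts and Adarb2 of all lists rose there (1.92 and 0.89).

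Set against GFAPCre, C57bl6J was higher at Sst by log2 2.76 ± 0.25 (SE; edgeR adjusted p = 1.33e-08), at Crh by 1.29 ± 0.39 (edgeR adjusted p = 0.0257) and at Reln by 0.40 ± 0.13 (edgeR adjusted p = 0.0470). Both C57bl6J mice were above every GFAPCre mouse at Sst and at Reln, but at Crh 1 GFAPCre mouse reached 11.4, between 11 and 11.9. Cck differed by −0.34 ± 0.21 (SE; edgeR adjusted p = 0.308). Of the 4 members that passed the filter 3 were called, where 12.5% of 13256 loci were; a locus can pass the filter through the group where it is high, so this count is a description. The other 5 were fitted without the filter: Npy differed by 0.74, Vip by 1.26, Tac1 by 1.29, Penk by 0.66 and Pvalb by −0.68, with edgeR adjusted p from 0.0664 (Vip) to 0.659 (Pvalb). The Reln call was lost in 4 of 8 leave-one-out fits (without GFAPCre 1 or 4 or either C57bl6J mouse; edgeR adjusted p 0.0940 to 0.340) and in 5 of 8 other settings, and Crh passed the filter in only 4 of the 8 fits and was called in each. C57bl6J and Syn1Cre were each set against GFAPCre, so these comparisons share those mice. From the lists, 7 of 8 GABA genes rose (median 2.20), 11 of 21 subtype genes rose and 1 fell, 4 of 11 other neuropeptide genes rose (Nts 2.00, Pnoc 1.30, Crhbp 1.27, Cartpt 1.02) and 4 of 20 receptor genes rose, while Cckbr, a cholecystokinin receptor gene, fell by 0.51. In the astrocyte list 8 of 12 fell, with a median of −0.77.

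With the SP1 transposase the members moved apart. Genome-wide, 7.16% ± 0.65 (SD, n = 6) of Syn1Cre insertions lay within 1 kb of a start site, against 19.8% ± 2.81 (n = 4) in Syn1Cre_SP1_P28 and 22.7% ± 1.11 (n = 3) in Syn1Cre_SP1_P10. In these comparisons 51.5% of 12053 loci passed between P28 and Syn1Cre and 40.7% of 12787 between P10 and Syn1Cre, so a call there is common. Scaling matters too: the median locus was at −0.06 and −0.26 with TMM factors and at 0.42 and 0.27 when scaled by total insertions.

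Reln was lower with SP1 under both scalings. Syn1Cre_SP1_P28 mice had 233, 257, 261 and 284 IPM and Syn1Cre_SP1_P10 mice 322, 279 and 241, all below the lowest Syn1Cre mouse at 366. The log2 differences from Syn1Cre were −1.12 ± 0.15 at P28 (SE; edgeR adjusted p = 1.07e-06) and −1.07 ± 0.18 at P10 (edgeR adjusted p = 4.26e-05), and with total insertions −0.64 and −0.53, both past the threshold. Near the start the order was turned: within 1 kb the level was 10.7 ± 3.75 (6.72 to 15.5) in Syn1Cre, 26.9 ± 6.87 (20.8 to 36.7) at P28 and 40.9 ± 17.9 (21.0 to 55.7) at P10, and neither SP1 group overlapped Syn1Cre. Beyond 5 kb it was 329 ± 28.1, 177 ± 34.3 and 185 ± 39.9 IPM (SD, n = 6, 4 and 3). The printed Reln promoter, with its 6 GC boxes, held 0 insertions in these groups too.

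Cck was lower with SP1 with TMM factors. Syn1Cre_SP1_P28 mice had 25.9, 0, 18.2 and 13.9 IPM from 17 insertions, and the log2 difference was −1.29 ± 0.38 (SE; edgeR adjusted p = 0.00634). Syn1Cre_SP1_P10 mice had 23.0, 11.1 and 0 from 3 insertions, with a difference of −1.85 ± 0.73 (SE; edgeR adjusted p = 0.0449); the plain ratio of IPM was 0.397, with an exact 95% counting interval of 0.0809 to 1.18. With total insertions neither passed (edgeR adjusted p = 0.0873 and 0.194; over all other settings 0.00246 to 0.0940 at P28 and 0.00610 to 0.194 at P10). The P28 call was lost without Syn1Cre_SP1_P28 mouse 4 (edgeR adjusted p = 0.0725), and the P10 call in 6 of 9 leave-one-out fits, without Syn1Cre 1, 2, 3 or 4 or P10 mouse 2 or 3 (0.0527 to 0.215). At Sst, SP1_P28 mice had 34.5, 27.5, 66.8 and 46.7 and SP1_P10 mice 69.1, 78.0 and 52.5 IPM. Sst differed by −0.56 ± 0.26 at P28 (SE; edgeR adjusted p = 0.0763) and −0.07 ± 0.38 at P10 (0.892), and with total insertions by −0.09 and 0.46. Counted in the gene body alone, Sst was higher at P28 than in Syn1Cre, by 1.14 (edgeR adjusted p = 0.0293, and 0.0293 to 0.935 over all 8 settings), with 21.8 ± 11.6 IPM against 9.83 ± 4.60. The Sst body as counted reaches past the start site and holds the whole printed promoter window. Of its 25 insertions at P28, 8 lay on the promoter TTAA at −159 and 3 on that at −29.

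Penk, the enkephalin precursor gene, was the member with the highest values in the SP1 groups relative to Syn1Cre. Its level was 8.62, 27.5, 12.2 and 20.8 IPM at P28 and 34.6, 22.3 and 21.0 at P10, each above the highest Syn1Cre mouse at 8.35. Of the 19 insertions at P28, 9 lay on 1 position and 5 on the next, both in the flank. At P10 the log2 difference was 1.56 ± 0.67 (SE; edgeR adjusted p = 0.0661), past the threshold in 2 of 4 other settings (0.0217 to 0.124), and at P28, without the filter, it was 1.09 ± 0.46 (SE; edgeR adjusted p = 0.0592). Without the filter 33.4% of loci passed at P28, and Npy was among them, by −1.60 ± 0.54 (SE; edgeR adjusted p = 0.0159), with 4.31, 0, 18.2 and 3.46 IPM. At P10 Npy had 0, 11.1 and 31.5 IPM and did not pass (−0.32 ± 0.72, SE; edgeR adjusted p = 0.747; 0.20 with total insertions). Crh had 6.08 to 13.9 IPM at P28, Vip 0 to 6.08, Tac1 0 to 9.18 and Pvalb 1 insertion in 4 mice; at P10 Tac1 had 0 in 3 mice, where 3 insertions would be 11 IPM over the group. So 2 of 3 members tested passed at P28, where 51.5% of loci did, and 2 of 5 at P10, where 40.7% did, all of them lower; with so few members these counts are not set apart from the shares of all loci. P28 and P10 were set against each other at Reln only (0.02 ± 0.22, SE; edgeR adjusted p = 0.967), where 11.2% of 3460 loci passed.

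The lists moved in both directions with SP1. Of all loci 51.5% passed at P28 and 40.7% at P10, and the list counts were not tested against these shares. Among receptor genes 2 rose and 7 fell of 17 at P28, with Sstr3 up by 1.90 and Sstr4 down (−1.68), and at P10 1 rose and 5 fell, again with Sstr3 (2.00) and Sstr4 (−2.30). In the processing list Chga, a granule protein gene, rose by 1.91 and 2.08, while 4 of 9 fell at P28 and 7 of 9 at P10, among them Cadps2 (−1.84 and −2.13) and Pcsk2 (−1.23 and −1.53). In the GABA list 3 of 8 rose at P28 (Gad1 1.01 and Slc32a1 0.87 among them) and 7 of 8 at P10, and 0 fell. The subtype list went otherwise. At P28 no gene of it rose, and Adarb2 (−1.65), Erbb4 (−1.43), Satb1 (−1.29) and Maf (−1.18) were among those that fell. At P10 it moved both ways, with Npas1 (2.29) and Lhx6 (1.80) among the genes that rose and Adarb2 (−2.29) and Lamp5 (−1.975) among those that fell. These comparisons share the Syn1Cre mice.

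In Rbp4Cre_TRAP, from deep-layer excitatory neurons, Sst had 0, 0, 49.9 and 0 IPM, from 2 insertions in 1 mouse. Against Syn1Cre the plain ratio was 0.238, with an exact 95% counting interval of 0.0286 to 0.867, and the fitted log2 difference −2.27 ± 0.84 (SE) had an edgeR adjusted p of 0.148 (0.0343 to 0.347 over its other settings). Npy was at 0 in all 4 mice, where 3 insertions over the group would be 17.5 IPM, above the Syn1Cre level of 12.8. Cck was present in every mouse, at 17.5, 39.7, 74.9 and 41.0 IPM from 7 insertions, with a log2 difference of 0.30 ± 0.61 (SE; edgeR adjusted p = 0.862). Reln had 333, 258, 300 and 246, all below the Syn1Cre range, and differed by −0.74 ± 0.21 (SE; edgeR adjusted p = 0.0541); without Syn1Cre 5 or Rbp4Cre_TRAP 1 it passed (0.0336 to 0.0423), as in 3 of 8 other settings (0.00205 to 0.316). Crh had 52.6, 19.9, 0 and 41.0 IPM from 5 insertions.

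None of the 3 members tested in Rbp4Cre_TRAP passed, where 2.11% of 10693 loci did and 205 of the 226 called were lower. At an unadjusted p under the same threshold Sst and Reln would have. With DESeq2 0 did, where Sst and Cck had no adjusted p. Without the filter 3.73% of loci passed, Sst (−2.47) and Reln (−0.94) among them. The median locus was at −0.31 with TMM factors and at −0.07 with total insertions. In the GABA list 5 of 8 fell and 0 rose; Dlx2, Dlx5 and Gad1 were at 0 insertions, and the list summed to 76.2 IPM against 934 in Syn1Cre. In the subtype list 6 of 19 fell, and in the processing list 2 of 9, Cpe (by 1.60) and Pam (by 0.72). Of 17 receptor genes 0 passed.

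**Figure D5:**
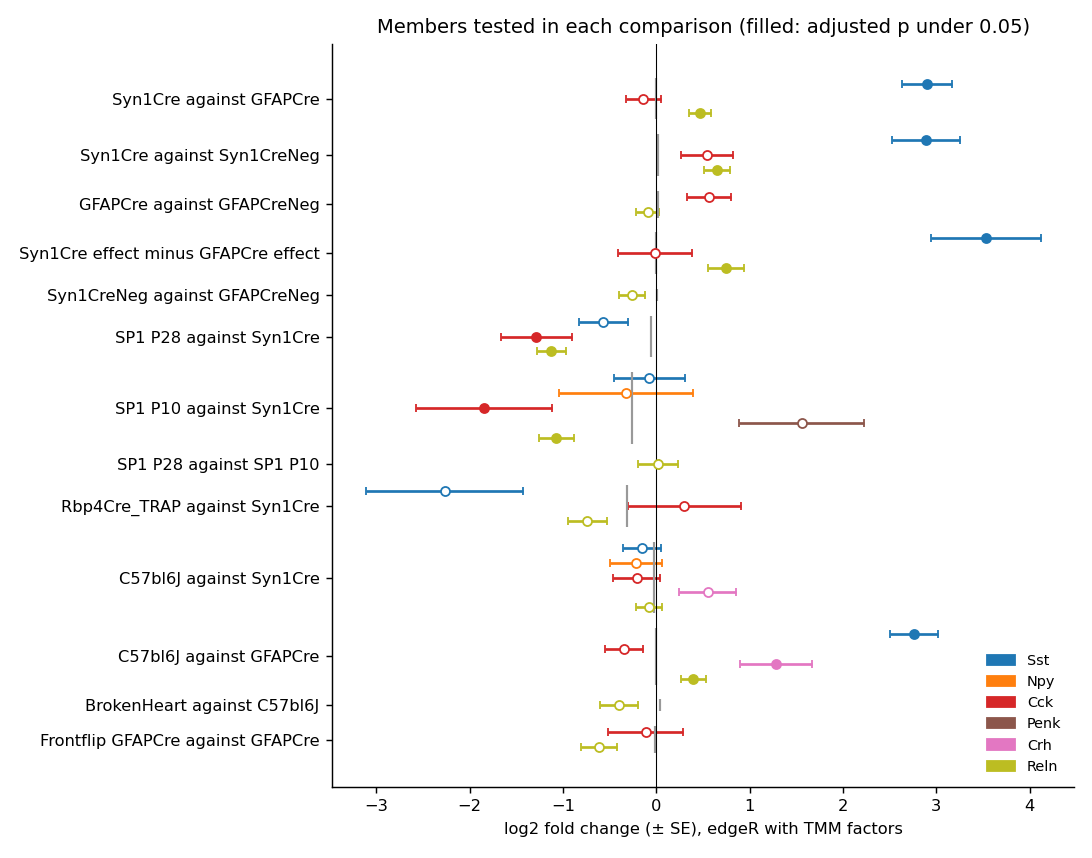
Log2 difference with SE (horizontal axis, edgeR with TMM factors) of each member tested, by comparison (vertical axis); filled points passed the adjusted threshold and grey bars mark the median of all loci. Sst stands at 2.90 in Syn1Cre against GFAPCre and 2.76 in C57bl6J against GFAPCre, and Reln at −1.12 and −1.07 in the SP1 comparisons.

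BrokenHeart, read from DNA, held 42511 to 98197 insertions a mouse. Sst had 17.2, 40.7 and 47.0 IPM from 7 insertions, which spanned the C57bl6J values, Cck had 17.2, 50.9 and 94.1, and Vip, Crh and Pvalb were at 0 in all 3 mice (3 insertions would be 15.1 IPM). Reln had 240, 265 and 353 IPM and was the only member tested against C57bl6J, at −0.40 ± 0.20 (SE; edgeR adjusted p = 0.110), with 0 passing unadjusted or with DESeq2, where 39.9% of 1879 loci passed. Without the filter 6.67% of loci passed, Reln among them (−0.93; edgeR adjusted p = 0.00153); over its 8 other settings the adjusted p ran to 0.185, and without BrokenHeart 3 it was 0.0299. With the replicate number as a block it was −0.80 (edgeR adjusted p = 0.0491).

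Frontflip_GFAPCre had 4.87, 6.23 and 6.12 IPM at Sst, 1 insertion in each mouse, near the GFAPCre median. Reln had 214, 156 and 159 IPM, of which 1 mouse lay inside the GFAPCre range and the other two below it. The log2 difference of Reln was −0.61 ± 0.19 (SE; edgeR adjusted p = 0.101) and that of Cck (43.8, 18.7 and 12.2 IPM) −0.11 ± 0.40 (edgeR adjusted p = 0.946). None of the 2 members tested passed, where 1.75% of 10526 loci did; Reln would have at an unadjusted p, and with DESeq2 0 did. Without the filter 1.52% did, Reln among them (−0.69; edgeR adjusted p = 0.0131, and 0.0131 to 0.216 over its settings), as it did without GFAPCre 3 (0.0130). In Frontflip_GFAPCreNeg all 8 short loci were at 0, where 3 insertions would be 170 IPM over the group, and Reln had 417, 0 and 530 from 7 insertions.

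In the N2a line, which has no replicate, Vip led the short loci with 13.6 IPM from 11 insertions, followed by Npy (9.92, 8 insertions), Tac1 (6.20, 5 insertions), Sst and Pvalb (3.72 each, 3 insertions) and Cck (1.24, 1 insertion). Penk and Crh were at 0, where 3 insertions would be 3.72 IPM. Reln had 31.0 IPM from 25 insertions, below every brain mouse with an insertion there.

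Over all groups the order of Sst means was Syn1Cre_SP1_P10 (66.5), Syn1Cre (46.7), Syn1Cre_SP1_P28 (43.9), C57bl6J (39.9), BrokenHeart (35.0), Rbp4Cre_TRAP (12.5), GFAPCreNeg (9.54), Syn1CreNeg (7.52), GFAPCre (6.38), Frontflip_GFAPCre (5.74) and N2a (3.72), with Frontflip_GFAPCreNeg last at 0, where 3 insertions over the group would be 170.4. Each group down to GFAPCre overlapped the next in range. To see which loci followed the members, log2 values (IPM plus 1) were correlated over the 26 mice of Syn1Cre, Syn1CreNeg, GFAPCre, GFAPCreNeg and C57bl6J among 12948 loci, leaving out those within 1 Mb. The groups and depths that these mice share enter such values, and they are a description. The closest to Sst were Dlx5 (r = 0.901), Maf (0.885) and Kcnmb2 (0.873), and to Npy they were Kcnc2 (0.886), Gucy1b2 (0.881) and Neto2 (0.851). For Reln they were Sema3a (0.860), Filip1 (0.847) and Grik1 (0.845), and for Cck they were Lrif1 (0.835), Map1b (0.814) and Rnf150 (0.801). Vip was closest to Slc38a1 (0.839), Tac1 to Fcrlb (0.793), Penk to Snrpd2 (0.843), Crh to Map3k7cl (0.864) and Pvalb to Hecw1 (0.696).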

How the data were processed

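The deposited tables list insertions, 1 row each, with position, strand and the count of reads behind it, as the authors' pipeline wrote them; the count used here is the number of rows. Novoalign and Bowtie2 and the build mm10 are named in the submitters' processing notes, with no role or version. Per the labels' protocols, SRT cortices were cut into 10 parts indexed apart and BrokenHeart transposons carried barcodes. Sequencing pools in the labels hold parts of several animals, at times of different groups, and the tables are split by animal, which was taken as the replicate. The labels do not say whether animals shared a litter. BrokenHeart positions were shifted by −1, where 53.2% to 55.3% of them fell on C57bl6J positions against at most 0.438% at other offsets.

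Rows were counted in 21631 protein-coding loci (RefSeq body on GRCm38 with 10 kb on each side). Tests were edgeR 4.0.16 quasi-likelihood fits in R 4.3.3 of only the groups compared, with library sizes as total insertions, TMM factors, filterByExpr (minimum count 10, minimum total 15) and Benjamini-Hochberg adjustment over all loci tested, at 0.05. The script was tested on simulated data. Alternatives were total insertions alone, DESeq2 1.42.0, no filter, distinct positions, rows with at least 2 reads, the body alone, rows of 1 locus only, blocks (replicate number, label layout, shared pool) and leaving out each animal. Members under the filter are given by their levels or by the fit without it, and the smaller groups by the members with most insertions; from other lists at most the 4 largest changes past the threshold are named, and some list genes are not reported here. The members and lists were chosen with earlier results of these data known, among them a rise around Sst in Syn1Cre over GFAPCre. Intervals and floors cover counting error only.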

Additional observations from a re-analysis of the deposited data

Results flagged for a closer look

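Among 53 sets of 4 to 6 mice, 9 had 1 mouse far from the rest by a rule on the gap over the range. Its rate of 1 in 20 is meant for continuous values. A set in which only 1 mouse is above 0 is always flagged, so the 9 cannot be set against that rate. Most of the 9 rest on 1 to 4 insertions. In Rbp4Cre_TRAP these were Sst in mouse 3 (49.9 IPM, 2 insertions), Tac1 and Penk in mouse 2 (19.9 each, 1 insertion) and Pvalb in mouse 1 (35.1, 2 insertions), with 0 in the other mice. Npy stood out in Syn1CreNeg mouse 5 (7.18 IPM, 3 insertions) and Crh in Syn1CreNeg mouse 6 (8.50, 4 insertions). Crh also stood out in GFAPCre mouse 5, at 11.4 IPM from 7 insertions, against 2.94 to 5.31 in the other mice. Pvalb did so in GFAPCreNeg mouse 5 (2.24, 1 insertion) and in Syn1Cre_SP1_P28 mouse 4 (1.73, 1 insertion).

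The change with Cre differed between the Syn1Cre and GFAPCre lines at Sst, by log2 3.53, and at Reln, by 0.75, each tested by the interaction in edgeR. In the N2a table, which entered no comparison, Npy (9.92 IPM), Vip (13.6), Tac1 (6.20) and Reln (31.0) were above the 3.72 IPM that 3 insertions give.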

How the results depend on the processing

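Of 246 recomputed counts of members past the threshold, 184 stayed within 1.5 times the main count. The count for Syn1Cre against GFAPCre was 2 and became 1 in the body alone and with the shared label layout. That for Syn1Cre against Syn1CreNeg was 2 and became 1 with distinct positions and in the body alone. The count for the interaction was 2 and became 1 with DESeq2, distinct positions, rows with 2 or more reads, the body alone and the replicate block, and 0 with the shared label layout. That for SP1 P28 was 2 and became 1 with total insertions, distinct positions and rows of 1 locus only; that for SP1 P10 was 2 and became 1 with DESeq2, distinct positions and the body alone. Rbp4Cre_TRAP went from 0 to 2 without the filter and to 1 with distinct positions and in the body alone. C57bl6J against GFAPCre went from 3 to 1 with DESeq2, distinct positions, 2 or more reads, the body alone and rows of 1 locus only. BrokenHeart went from 0 to 1 without the filter and with the replicate block, and Frontflip from 0 to 1 without the filter and with distinct positions. In the body alone, fewer members are tested. Otherwise the cause was not tested. The Sst difference between SP1 P28 and Syn1Cre turned from −0.56 to 1.14 in the body alone, where 1.77 kb are counted, with the printed promoter among them.

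Leaving out each animal gave 1 to 2 members for Syn1Cre against GFAPCre, 2 to 3 against Syn1CreNeg, 0 to 0 for GFAPCre against GFAPCreNeg and for the Cre-negative groups, 1 to 2 for the interaction, 1 to 3 for SP1 P28, 1 to 2 for SP1 P10, 0 to 0 for P28 against P10, 0 to 1 for Rbp4Cre_TRAP, 0 to 0 for C57bl6J against Syn1Cre, 1 to 3 against GFAPCre, and 0 to 1 for BrokenHeart and for Frontflip. No comparison had a clear correlation in all its same-numbered animals (for Syn1Cre against GFAPCre they ran from −0.213 to 0.167), so the main fits did not pair them. Comparisons with 2 or 3 pairs cannot exclude pairing, and for SP1 P28 against P10 all correlations were positive (0.0088 to 0.127). With the replicate block the loci called in C57bl6J against Syn1Cre went from 117 to 1111 and 0 members passed there. Depth limits the short loci most: in Rbp4Cre_TRAP 3 insertions are 17.5 IPM over the group.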
